A study of Mus musculus with 6 samples.

Results

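The D-type cyclins, their kinases and the inhibitors of those kinases were followed in 2 sorted cell populations of the neonatal mouse limb. The 10 genes were Ccnd1, Ccnd2, Ccnd3, Cdk4, Cdk6, Cdkn1a, Cdkn1b, Cdkn1c, Cdkn2c and Cdkn2d, taken by symbol from 18193 genes that had a probe set annotated to a single gene. Together they had 26 of the 45037 probe sets, between 1 and 7 each, and each gene was represented by its probe set with the highest mean. RNA came from 6 Affymetrix mouse expression arrays, 3 per population, of cells from pooled fore and hind limbs of litters at postnatal day 3. Sample titles describe both populations as negative for CD45, an antigen of white blood cells, and for Ter119, one of red cells. The first, called Tie2-negative here, also lacked integrin alpha V (Itgav) and the angiopoietin receptor Tie2, while the second, called Tie2-positive, carried Tie2 and little integrin alpha V. The labels give a wild-type genotype, elsewhere speak of GFP-labelled mice, and name no treatment of the animals. Whether the 3 replicates came from different litters is not stated, so the p-values cover only their own spread, and that spread may be technical.

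D-type cyclins are made in response to growth signals. They bind and activate the kinases CDK4 and CDK6, which phosphorylate the retinoblastoma protein and its relatives and so release E2F transcription factors that drive entry into DNA replication. The Cip/Kip inhibitors (p21, p27 and p57, encoded by Cdkn1a, Cdkn1b and Cdkn1c) bind cyclin-kinase complexes, and the INK4 inhibitors (p18 and p19, encoded by Cdkn2c and Cdkn2d) bind CDK4 and CDK6 directly. In blood-forming tissue CDK6, cyclin D3 and p18 are best known from lymphoid and red-cell precursors and stem cells, whereas cyclin D1 is widely used outside the blood.

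The sequences just upstream of the start sites were examined for 3 kinds of short motif that bear on this pathway. Windows of 250 bases before the start, from RefSeq (GRCm38.p6), were at hand for 7 of the 10 genes, in 10 windows, and not for Ccnd1, Ccnd2 or Cdkn1c. The 4 windows that follow are shown because they hold the letters of a known control site of this pathway, which are in capitals: CACGTG, the E-box bound by Myc, in the windows of the partner kinases, TTTCGCG, an E2F-type motif, in the first window of Cdkn2c by coordinate, and 2 half-sites of p53 in the first window of Cdkn1a. Cdk4 is on the plus strand at chr10:127063285-127063534, Cdk6 on the plus strand at chr5:3343643-3343892, Cdkn2c on the minus strand at chr4:109665373-109665622 and Cdkn1a on the plus strand at chr17:29090729-29090978.
Cdk4: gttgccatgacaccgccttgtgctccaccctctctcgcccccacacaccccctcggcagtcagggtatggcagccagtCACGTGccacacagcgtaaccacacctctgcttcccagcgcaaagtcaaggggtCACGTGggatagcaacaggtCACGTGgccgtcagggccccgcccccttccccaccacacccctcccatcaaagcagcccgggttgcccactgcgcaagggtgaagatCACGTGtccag
Cdk6: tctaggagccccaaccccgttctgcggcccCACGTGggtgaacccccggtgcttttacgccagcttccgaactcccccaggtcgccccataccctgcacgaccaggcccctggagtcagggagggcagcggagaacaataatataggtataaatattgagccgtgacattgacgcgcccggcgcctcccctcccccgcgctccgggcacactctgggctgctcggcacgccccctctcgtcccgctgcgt
Cdkn2c: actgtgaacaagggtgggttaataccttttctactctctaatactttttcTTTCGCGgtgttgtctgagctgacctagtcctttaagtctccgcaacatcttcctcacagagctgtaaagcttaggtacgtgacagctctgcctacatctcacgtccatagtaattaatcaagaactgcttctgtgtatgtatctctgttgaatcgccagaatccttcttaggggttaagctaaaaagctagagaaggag
Cdkn1a: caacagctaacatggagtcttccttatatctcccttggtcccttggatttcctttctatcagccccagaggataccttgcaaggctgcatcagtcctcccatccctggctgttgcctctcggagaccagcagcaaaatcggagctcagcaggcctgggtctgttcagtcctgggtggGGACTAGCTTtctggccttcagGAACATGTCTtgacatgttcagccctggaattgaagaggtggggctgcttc

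CACGTG stood 4 times in the window of Cdk4 and 1 time in that of Cdk6. It was thus found in 2 of the 10 windows, against 6.02% of all 32851 windows of this length. At least 4 copies stood in 0.0213% of all windows, but that cut-off is the count of Cdk4 itself, so this share is no test. TTTCGCG or TTTGGCG, searched on both strands, was found in 1 of the 10 windows and in 1.93% of all. The p53 half-site was found in 2 of the 10 windows, the other being that of Cdkn2d, and in 7.13% of all. A match is a description of letters and not a measured site.

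The arrays were checked against the gates before the genes were compared. Tek, which encodes Tie2, ranged from 4.79 to 4.90 on the log2 scale in Tie2-negative arrays and from 9.80 to 12.06 in Tie2-positive ones, and Itgav was between 7.06 and 7.24 against 8.60 and 9.37, which checks the labels and is no finding. Ptprc, the gene of CD45, was between 9.42 and 10.41 in the Tie2-negative arrays and at 4.87, 9.95 and 11.23 in Tie2-positive replicates 1, 2 and 3, although both gates excluded the antigen. Of 10 endothelial marker genes 8 rose and 0 fell, and their median level was between 5.34 and 5.55 in the Tie2-negative arrays and at 11.78, 10.39 and 9.23 in Tie2-positive replicates 1, 2 and 3. The median of 8 measured neutrophil genes was at 6.03, 12.11 and 13.51 in the same Tie2-positive replicates and between 6.25 and 8.88 in the Tie2-negative arrays, with 0 of 8 past the threshold. The median of 8 measured erythroid genes ranged from 11.26 to 12.44 in Tie2-negative arrays and from 5.46 to 8.14 in Tie2-positive ones (5 fell and 0 rose), and that of 9 B-lineage genes between 7.84 and 10.15 against 5.63 and 6.09 (6 fell and 0 rose). Markers of skeletal mesenchyme had medians between 5.94 and 6.22 in Tie2-negative and between 5.69 and 6.44 in Tie2-positive arrays, with 0 of 10 past the threshold. Megakaryocyte genes had medians of 6.25 to 6.66 in Tie2-negative arrays and 6.47, 9.32 and 8.18 in Tie2-positive replicates 1, 2 and 3, and 1 of 6 (Pf4) rose. Among 6 macrophage genes 1 (Mrc1) rose and 0 fell, among 5 measured genes of T and NK cells 0 rose and 1 fell, and among 4 mural genes 0 passed. The median of 27 genes of replication and mitosis, of which 26 were measured, was between 11.42 and 11.67 in the Tie2-negative arrays and at 8.96, 10.89 and 10.99 in Tie2-positive replicates 1, 2 and 3. The part that these cell mixtures have in the values below was not tested, and fewer cells of a type cannot be told apart from less RNA per cell.

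None of the 10 genes passed the test between the populations, but the means of the D cyclins differed in opposite directions. Limma, fitted over 18193 genes with Benjamini-Hochberg adjustment and a threshold of 0.05, called 0 of the 10, against 7.39% of all genes (4.86% higher and 2.53% lower in the Tie2-positive population). At an unadjusted p under 0.05 there were 5 of the 10 (Ccnd1, Ccnd2 and Cdkn1c with a higher and Ccnd3 and Cdkn2c with a lower mean in the Tie2-positive population), against 28.6% of all genes (13% higher and 15.6% lower). The populations did not overlap for 5 of the 10 genes, against 39.1% of all genes: 4 were higher in the Tie2-positive population (15.2% of all genes) and 1 was lower (23.9%). Ccnd1, Ccnd2, Cdkn1a and Cdkn1c were the 4, and Ccnd3 was the 1. With array weights, which give less weight to arrays that stand apart, limma called 3 of the 10 higher (Ccnd1, Ccnd2 and Cdkn1c, against 12% of all genes) and 2 lower (Ccnd3 and Cdkn2c, against 13.5%). A change is the Tie2-positive mean minus the Tie2-negative mean (log2, n = 3 per population). Values of different probe sets are not on a common scale, so no gene's level is ranked against another's within a population. No detection calls came with the values, so a low level was not told apart from background.

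**Figure D1:**
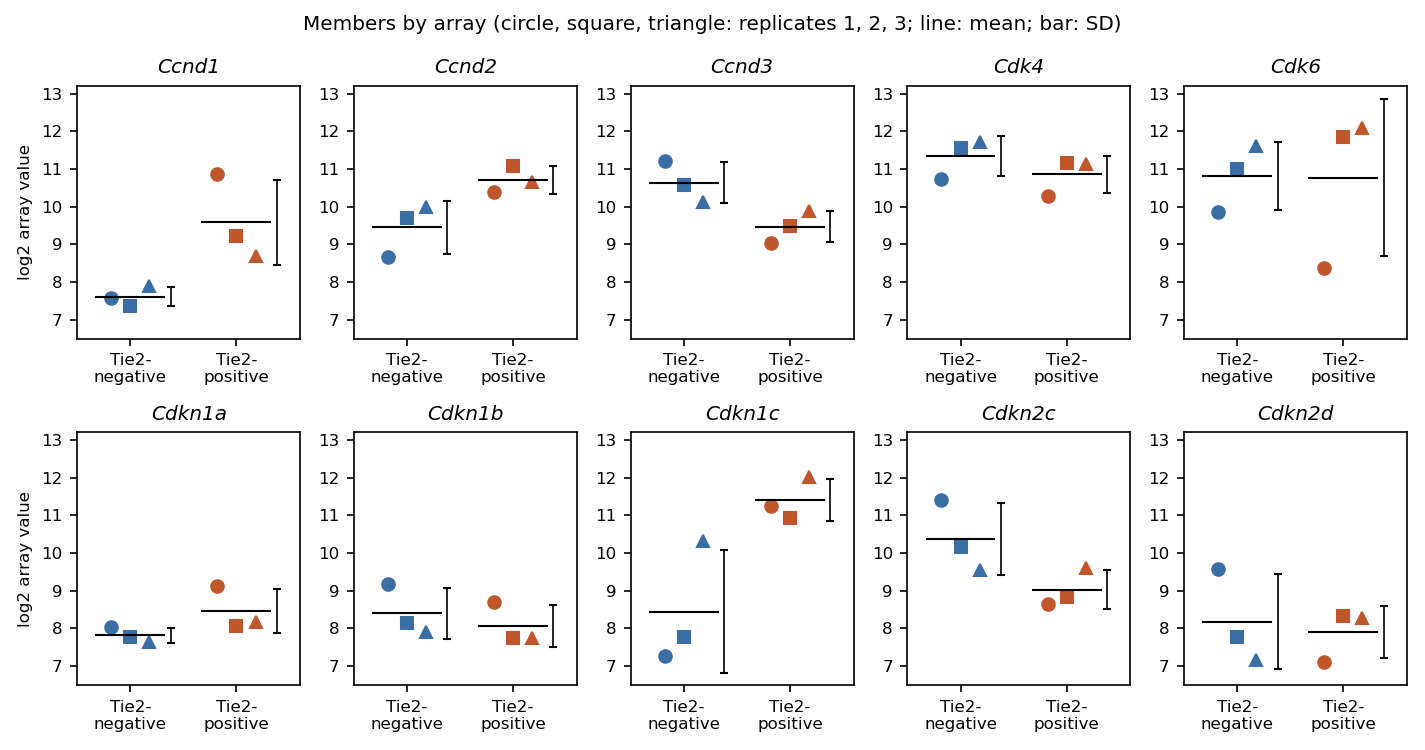
Array values of the 10 genes on the log2 scale (y axis) in the Tie2-negative (blue) and Tie2-positive (orange) population (x axis), with circles, squares and triangles for replicates 1, 2 and 3, a line for the mean and a bar for the SD (n = 3). Ccnd1, Ccnd2, Cdkn1a and Cdkn1c lie wholly higher and Ccnd3 wholly lower in the Tie2-positive arrays, and Cdk6 spans 3.72 log2 units.

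Ccnd1, the cyclin that most cells outside the blood use, had values of 7.57, 7.37 and 7.89 in Tie2-negative replicates 1, 2 and 3. In Tie2-positive replicates 1, 2 and 3 it had values of 10.86, 9.21 and 8.69. The populations did not overlap, and the array with the most endothelial and least neutrophil transcript held the highest value. The change was 1.97 ± 0.55 (SE; limma adjusted p = 0.0756). Its other probe sets gave changes of 2.62 ± 0.52 (SE) and 2.26 ± 0.53 (SE), and the former passed when all probe sets were tested together (limma adjusted p = 0.0389). Averaged over its 3 probe sets Ccnd1 passed as well (2.29, limma adjusted p = 0.0487), where 4.33% of all genes were higher. Without Tie2-positive replicate 1 it was the 1 member called (1.34, limma adjusted p = 0.0201), where 8.22% of all genes were higher and 3.58% lower. It also passed without Tie2-positive replicate 3 (2.42, limma adjusted p = 0.0482), where 4.73% of all genes were higher. Ccnd1 did not pass without Tie2-positive replicate 2 (limma adjusted p = 0.133). Nor did it pass without Tie2-negative replicate 1, 2 or 3 (limma adjusted p = 0.191, 0.200 and 0.148). With Tie2-positive replicate 1 as the only array of its population, the change of Ccnd1 was 3.25. A lone array shows no spread of its population, so only changes are given for that fit. Over all alternatives the limma adjusted p of Ccnd1 went up to 0.200.

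Ccnd2 was also higher in every Tie2-positive array, by a smaller margin. This cyclin, used in lymphocytes, germ cells and many growing tissues, measured 8.66, 9.71 and 9.999 in the Tie2-negative and 10.38, 11.09 and 10.66 in the Tie2-positive replicates 1, 2 and 3. Only 0.38 log2 units lay between the lowest Tie2-positive and the highest Tie2-negative value. The change was 1.25 ± 0.39 (SE; limma adjusted p = 0.0978). Its 7 probe sets all had a positive change, from 0.36 to 1.29, and in 3 of them the populations overlapped. Without Tie2-negative replicate 1, the array with the lowest Ccnd2, the change was 0.86 (limma adjusted p = 0.180).

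For Ccnd3, the D cyclin known for its role in developing lymphocytes and red-cell precursors, the order of the populations was the other way round. Values of 11.20, 10.58 and 10.12 in the Tie2-negative replicates 1, 2 and 3 stood against 9.05, 9.48 and 9.89 in the Tie2-positive ones. The gap between the populations was 0.23 log2 units, and Tie2-negative replicate 1, with the highest erythroid median (12.44), held the highest value. Among the Tie2-positive arrays the 2 did not go together. Replicate 3, with the lowest erythroid median (5.46), held the highest Ccnd3 there, above replicate 2 with the highest erythroid median (8.14). The change was -1.17 ± 0.35 (SE; limma adjusted p = 0.0897), and its other probe sets gave -0.87 ± 0.28 (SE) and -0.27 ± 0.26 (SE). With Tie2-positive replicate 1 as the only array of its population, the change of Ccnd3 was -1.59.

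The difference between 2 D cyclins within an array shows whether they changed unequally, without setting their levels side by side. Ccnd1 minus Ccnd3 was -3.63, -3.21 and -2.23 in the Tie2-negative arrays and 1.81, -0.27 and -1.20 in the Tie2-positive arrays. The shift was 3.14 ± 0.98 (SE), and the populations did not overlap. Ccnd2 minus Ccnd3 went from between -2.54 and -0.12 to between 0.77 and 1.62, a shift of 2.42 ± 0.76 (SE), again without overlap. Each shift gave p = 0.1 in an exact two-sided permutation test, the smallest that 3 against 3 arrays allow, or 0.16 after adjustment over 8 such pairs. Both kept their direction with each array left out (2.29 to 3.80 and 1.74 to 2.95). Ccnd1 minus Ccnd2 overlapped between the populations (shift 0.72 ± 0.89, SE, exact permutation p = 0.5), and without Tie2-positive replicate 1 the shift was -0.08.

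**Figure D2:**
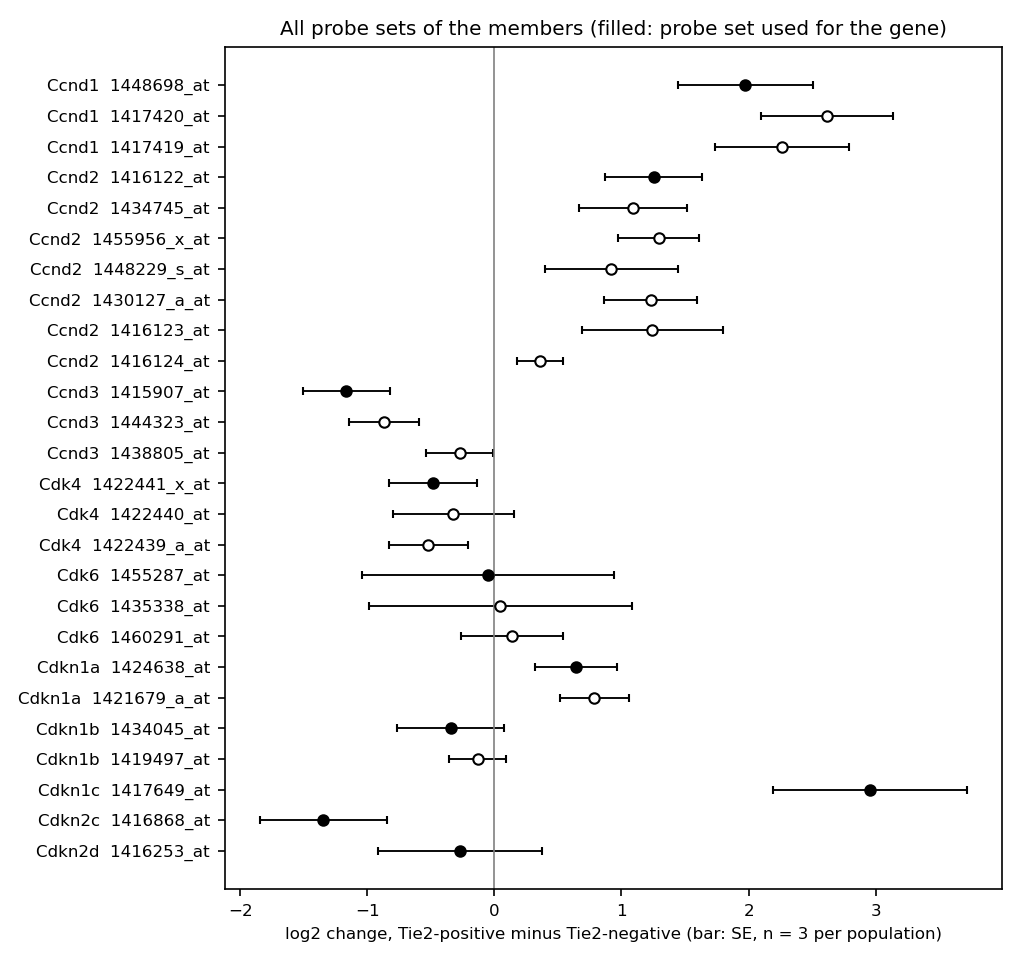
Log2 change between the populations (x axis, Tie2-positive minus Tie2-negative, bars are the SE, n = 3 per population) for each of the 26 probe sets of the 10 genes (y axis), with filled points for the probe set that represents the gene. The probe sets of Ccnd1 (1.97 to 2.62) and Ccnd2 (0.36 to 1.29) all lie to the right of 0 and those of Ccnd3 (-1.17 to -0.27) to the left.

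The partner kinases did not separate the populations. Cdk4 measured 10.74, 11.55 and 11.73 in the Tie2-negative and 10.28, 11.15 and 11.14 in the Tie2-positive replicates 1, 2 and 3, a change of -0.48 ± 0.35 (SE; limma adjusted p = 0.389). All of its 3 probe sets gave a small negative change, from -0.52 to -0.32. Cdk6 measured 9.85, 10.996 and 11.61 in the Tie2-negative and 8.36, 11.86 and 12.08 in the Tie2-positive replicates. Its mean change was -0.05 ± 1.02 (SE; limma adjusted p = 0.979), and Tie2-positive replicate 1 lay 3.50 log2 units below the next Tie2-positive array. That replicate also had the lowest neutrophil median (6.03), the lowest median of replication and mitosis genes (8.96) and the lowest Ptprc (4.87) of the 6 arrays. Without it the Cdk6 change was 1.16 (limma adjusted p = 0.155), and with it as the only Tie2-positive array the change was -2.46. The SE of 1.02 leaves room for a sizeable change in either direction. Another probe set of Cdk6 gave 7.47 in Tie2-positive replicate 1 and 11.20 and 11.19 in the others, the same arrangement.

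Myc, which binds the E-box letters printed above, is given beside the kinases. It measured 8.69, 9.19 and 9.55 in the Tie2-negative and 7.70, 9.65 and 9.58 in the Tie2-positive replicates (change -0.17 ± 0.56, SE, limma adjusted p = 0.858). Myc, Cdk4 and Cdk6 were each lowest in Tie2-positive replicate 1 and next lowest in Tie2-negative replicate 1. Skp2, Rbl2 and Ccnh had the same lowest and next lowest arrays, so this order was not particular to Myc and the kinases. The rule for named genes, given below, did not pick Myc, and whether Myc acts on the kinases here was not tested. Phgdh, the first enzyme of serine synthesis, and Tent5a had the array pattern most like that of Cdk6, with root mean square differences of 0.25 and 0.27 log2 units over the 6 arrays after centring each gene on its mean.

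**Figure D3:**
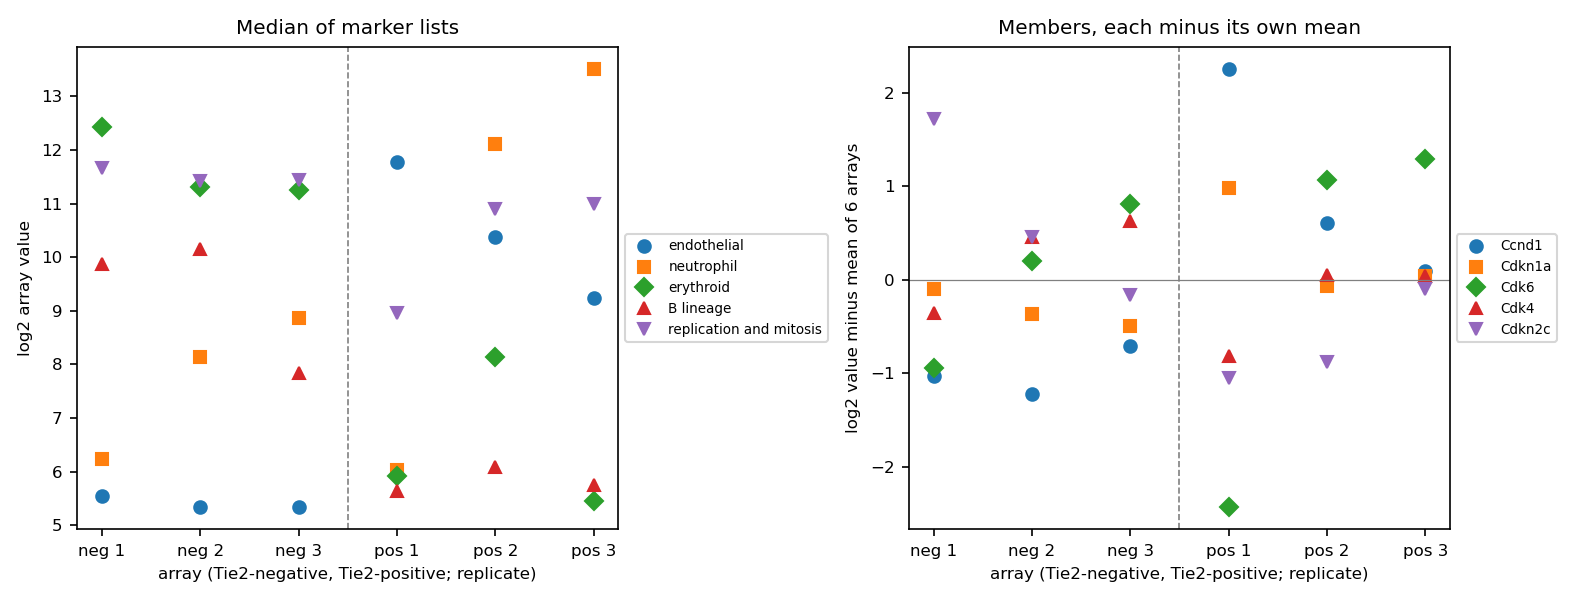
Left, the median log2 value of marker lists (y axis) on each array (x axis, neg for Tie2-negative, pos for Tie2-positive, with the replicate number), and right, the log2 value of 5 members minus their own mean over the 6 arrays. Tie2-positive replicate 1 has the highest endothelial median (11.78), the highest Ccnd1 and Cdkn1a and the lowest Cdk4 and Cdk6.

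Among the Cip/Kip inhibitors, Cdkn1c had the largest mean difference of all 10 genes, while Cdkn1a and Cdkn1b differed by less than 1 log2 unit. Cdkn1c (p57), an imprinted inhibitor that restrains growth in the embryo and is known from quiescent cells, measured 7.27, 7.77 and 10.31 in the Tie2-negative replicates 1, 2 and 3. In the Tie2-positive replicates it measured 11.25, 10.94 and 12.02. All Tie2-positive values were higher, but Tie2-negative replicate 3 came within 0.63 log2 units of them and stood 2.54 above the next Tie2-negative array. The change was 2.95 ± 0.78 (SE; limma adjusted p = 0.0684), from the only probe set of the gene. Without Tie2-negative replicate 3 Cdkn1c passed (3.88, limma adjusted p = 0.0222), where 1.38% of all genes were higher. It did not pass with any other single array left out (changes from 2.36 to 3.19, limma adjusted p from 0.065 to 0.190). Cldn12, a claudin, and Antxr1, a collagen-binding receptor, had the most similar array pattern, with root mean square differences of 0.44 each, and of these Cldn12 rose (2.86, limma adjusted p = 0.0335).

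Cdkn1a (p21), the inhibitor induced by p53, measured 8.05, 7.77 and 7.65 in the Tie2-negative and 9.12, 8.08 and 8.19 in the Tie2-positive replicates 1, 2 and 3. The populations were separated by only 0.03 log2 units, and Tie2-positive replicate 1 stood apart from the rest. The change was 0.64 ± 0.32 (SE; limma adjusted p = 0.238), and 0.79 ± 0.27 (SE) in its other probe set. With Tie2-positive replicate 1 as the only Tie2-positive array the change was 1.30, and without that array it was 0.31 (limma adjusted p = 0.376). Cdkn1b (p27), an inhibitor of resting cells, measured 9.18, 8.14 and 7.91 against 8.71, 7.74 and 7.75. These ranges overlapped, with replicate 1 the highest array in both populations, and the change was -0.34 ± 0.43 (SE; limma adjusted p = 0.614).

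Within arrays, Cdkn1a minus Cdkn1b was -1.13, -0.37 and -0.27 in the Tie2-negative and 0.41, 0.34 and 0.44 in the Tie2-positive replicates. The Tie2-positive values of this difference had an SD of 0.05. The shift was 0.99 ± 0.28 (SE; exact two-sided permutation p = 0.1, 0.16 adjusted over 8 pairs). Cdkn1b minus Cdkn1c shifted by -3.30 ± 1.36 (SE) with the same p, by -2.32 without Tie2-negative replicate 1 and by -4.48 without Tie2-negative replicate 3. Cdkn1a minus Cdkn1c overlapped between the populations (-2.31 ± 1.15, SE, exact permutation p = 0.2).

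Cdkn2c and Cdkn2d, the INK4 inhibitors among the 10 genes, had lower means in the Tie2-positive population with overlapping ranges. Cdkn2c (p18), which limits the expansion of blood stem cells and lymphocytes, measured 11.42, 10.17 and 9.55 in the Tie2-negative and 8.66, 8.83 and 9.61 in the Tie2-positive replicates 1, 2 and 3. Tie2-positive replicate 3 lay above Tie2-negative replicate 3 and all other Tie2-positive values lay below. The change was -1.35 ± 0.51 (SE; limma adjusted p = 0.146), and -0.82 without Tie2-negative replicate 1 (adjusted p = 0.274). Mppe1 and Mxd1, a Max partner that opposes Myc, had the most similar array pattern, with root mean square differences of 0.17 and 0.25. Cdkn2d (p19) measured 9.59, 7.78 and 7.17 against 7.11, 8.32 and 8.29, and its change of -0.27 ± 0.66 (SE; limma adjusted p = 0.801) was 0.43 without Tie2-negative replicate 1. Cdkn2c minus Cdkn2d ran from 1.84 to 2.38 in Tie2-negative arrays and from 0.51 to 1.55 in Tie2-positive ones, a shift of -1.07 ± 0.37 (SE; exact permutation p = 0.1, 0.16 adjusted over 8 pairs). The remaining INK4 genes, Cdkn2a and Cdkn2b, ranged from 4.13 to 4.79 and from 4.76 to 5.77 over the 6 arrays, with changes of 0.44 ± 0.12 (SE) and -0.24 ± 0.25 (SE), and neither passed (limma adjusted p = 0.0753 and 0.551). The populations did not overlap for Cdkn2a, which was higher in the Tie2-positive arrays, and overlapped for Cdkn2b.

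Genes whose array pattern most resembled that of the D cyclins were found by the same measure. For Ccnd1 they were Bhlhe40, a helix-loop-helix repressor, and Lima1, an actin-binding protein (root mean square differences of 0.10 each). Trip6, an adaptor of cell adhesions, and Khdrbs3, an RNA-binding protein, were closest to Ccnd2 (0.10 and 0.13), and Nrf1, a regulator of mitochondrial genes, and 2610020C07Rik to Ccnd3 (0.08 each). For Cdkn2d they were Cmas, which activates sialic acid, and Gstt1, a glutathione transferase (0.25 and 0.28). None of these 8 genes passed the test in limma (adjusted p from 0.0570 to 0.751, against 0.0335 for Cldn12), and with 6 arrays such likeness is a description.

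Pocket protein and E2F genes, and most of a list around cyclins E and A, leaned towards lower values in the Tie2-positive population. Of 13 pocket protein and E2F genes, 2 fell and 0 rose (2.53% of all genes fell). All 13 had a negative change, as had 11076 of all 18193 genes, and their median was -1.06 against -0.11 over all genes. E2f2, an activating E2F prominent in red-cell precursors, fell by 3.41 ± 0.65 (SE; limma adjusted p = 0.0305), and E2f4, which acts with pocket proteins in resting cells, fell by 1.24 ± 0.20 (SE; adjusted p = 0.0200). Rb1 itself, chosen after its values were seen, measured 11.81, 10.47 and 10.34 against 9.26, 9.52 and 9.47 and did not pass (-1.46 ± 0.40, SE, limma adjusted p = 0.0756). The list around cyclins E and A held 8 genes: Ccne1, Ccne2, Ccna2, Cdk2, Cdc25a, Cdk7, Ccnh and Mnat1. Of the 8 only Ccne1, the cyclin that follows cyclin D, fell (by 2.95 ± 0.62, SE, limma adjusted p = 0.0401). Its values went from 11.91, 12.44 and 12.02 to 7.65, 9.75 and 10.13. The list median was -0.71, and 7 of the 8 had a negative change. Mnat1, chosen after its values were seen, was higher in every Tie2-positive array (0.33 ± 0.20, SE, limma adjusted p = 0.314). The pocket protein and E2F list and the cyclin E and A list both had 0 falls without Tie2-positive replicate 2 (0.709% of all genes fell). Both also had 0 without Tie2-negative replicate 1 or 2, where 0 of all genes were called. Without Tie2-negative replicate 3 they had 1 and 0 (0.698% of all genes fell).

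Replication and mitosis genes did not pass, although all leaned the same way. Of 26 measured, 0 rose or fell in limma (0 higher and 13 lower at an unadjusted p under 0.05, against 13% and 15.6% of all genes). All 26 had a negative change, as had 11076 of all 18193 genes, and the median was -1.24. Mcm7 and Pcna of the replication machinery had changes of -1.22 ± 0.53 (SE) and -0.99 ± 0.37 (SE; limma adjusted p = 0.185 and 0.144). For Mcm7 the values were 13.25, 13.19 and 13.03 in the Tie2-negative and 10.60, 12.58 and 12.63 in the Tie2-positive replicates, so that replicate 1 alone was far below the rest. Without that array 11 of the 26 fell (3.58% of all genes), and with it as the only Tie2-positive array 23 fell (9.03% of all genes).

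**Figure D4:**
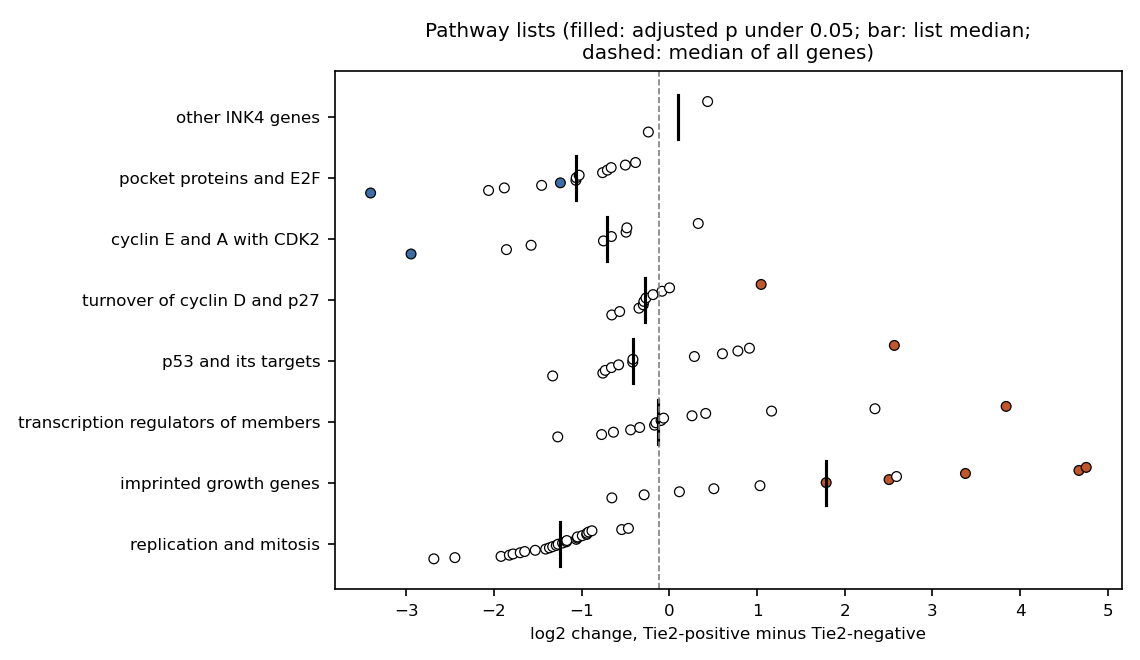
Log2 change (x axis, Tie2-positive minus Tie2-negative) of each measured gene in 8 lists around the cyclin D pathway (y axis), with filled points for genes past the threshold (orange higher, blue lower), a bar for the list median and a dashed line for the median of all genes (-0.11). The imprinted list reaches furthest to the right, with 5 filled points, and all points of the replication list lie to the left of 0.

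Regulators above the 10 genes were more mixed. Of 14 transcription regulators 1 rose and 0 fell, with a median of -0.12. With 4.86% of all genes called higher, 1 call in a list of this size, here and in the 2 lists that follow, is near that share. That gene was Klf4, a Krüppel-like factor of vascular endothelium known to induce Cdkn1a, which rose by 3.84 ± 0.68 (SE; limma adjusted p = 0.0262), from 4.54, 5.20 and 5.74 to 10.59, 8.13 and 8.28. Klf4 did not pass without Tie2-negative replicate 1, 2 or 3 (limma adjusted p = 0.114, 0.105 and 0.0661), with changes of 3.53, 3.86 and 4.13. The fits without Tie2-negative replicate 1 or 2 called 0 of all genes. Among 12 measured genes of p53 and its targets (Trp53, Bax and Gdf15 had no probe set of their own here) 1 rose and 0 fell, with a median of -0.42. Plk2, a kinase induced by p53, rose by 2.57 ± 0.58 (SE; limma adjusted p = 0.0468), but by 0.91 over the mean of its probe sets (adjusted p = 0.133). Mdm2, another target of p53, had a change of 0.29 ± 0.30 (SE). Of 10 genes of cyclin D and p27 turnover 1 rose and 0 fell, with a median of -0.28. Fbxo4, an F-box protein linked to cyclin D1 turnover, was close to the threshold (1.05 ± 0.24, SE, limma adjusted p = 0.0498), and averaging its probe sets gave 0.50 (adjusted p = 0.133). Skp2, the F-box protein that directs p27 to destruction, had a change of -0.66 ± 0.52 (SE), and like Mdm2 it was chosen after its values were seen. Neither Plk2 nor Fbxo4 passed without any 1 of the Tie2-negative replicates or without Tie2-positive replicate 2 (limma adjusted p from 0.0842 to 0.157). As above, no gene at all passed without Tie2-negative replicate 1 or 2.

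Some imprinted growth genes, the group in which Cdkn1c is usually placed, were higher in the Tie2-positive population. Of 11 measured besides Cdkn1c, 5 rose, 0 fell and 6 did not pass in limma, against 4.86% of all genes higher, and the list median was 1.79. Mest, an enzyme of growing mesoderm, rose by 4.75 ± 0.65 (SE; limma adjusted p = 0.0140). Igf2, a fetal growth factor, rose by 4.67 ± 0.66 (SE; adjusted p = 0.0147), from 7.24, 7.20 and 8.60 to 13.70, 11.45 and 11.90, and by 2.99 over the mean of its probe sets (limma adjusted p = 0.0279). Plagl1, a zinc finger factor described as a regulator of the imprinted group, rose by 3.38 ± 0.77 (SE; adjusted p = 0.0487), from 8.46, 7.57 and 10.66 to 12.55, 11.56 and 12.71. This rise rests on a probe set that can match several transcripts, since without such probe sets the change of Plagl1 was 0.26 (limma adjusted p = 0.436). Grb10, an adaptor that restrains insulin signalling, and Ndn (necdin), a growth suppressor, were the other risers (1.79 ± 0.35 and 2.51 ± 0.44, SE). Tie2-negative replicate 3 was the highest of the Tie2-negative arrays for Cdkn1c (10.31), for all 5 risers and for Peg3 (9.59), which did not pass (2.59 ± 0.61, SE, limma adjusted p = 0.0532). It was also highest for Dlk1 and Phlda2, whereas Meg3, Igf2r and Slc22a18 were highest in Tie2-negative replicate 1. Ccnd1, Ccnd2, Cdk4 and Cdk6 were highest in Tie2-negative replicate 3 too, so this order was not particular to imprinted genes. Phlda2 and Slc22a18, which lie in the same imprinted cluster as Cdkn1c, had changes of -0.66 ± 0.30 (SE) and -0.29 ± 0.18 (SE) and did not pass. Grb10, Ndn, Peg3, Phlda2 and Slc22a18 were chosen after their values were seen. Averaging the probe sets gave 3 risers, where 4.33% of all genes were higher. Dropping Tie2-negative replicate 3 also gave 3 (1.38% of all genes higher). The same count came from dropping array 2 or array 3 of the Tie2-positive population (2.06% and 4.73%). In the fits that lacked Tie2-negative array 1 or 2 the count was 0. Those fits called 0 of all genes, so their 0 says nothing particular to this list.

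**Figure D5:**
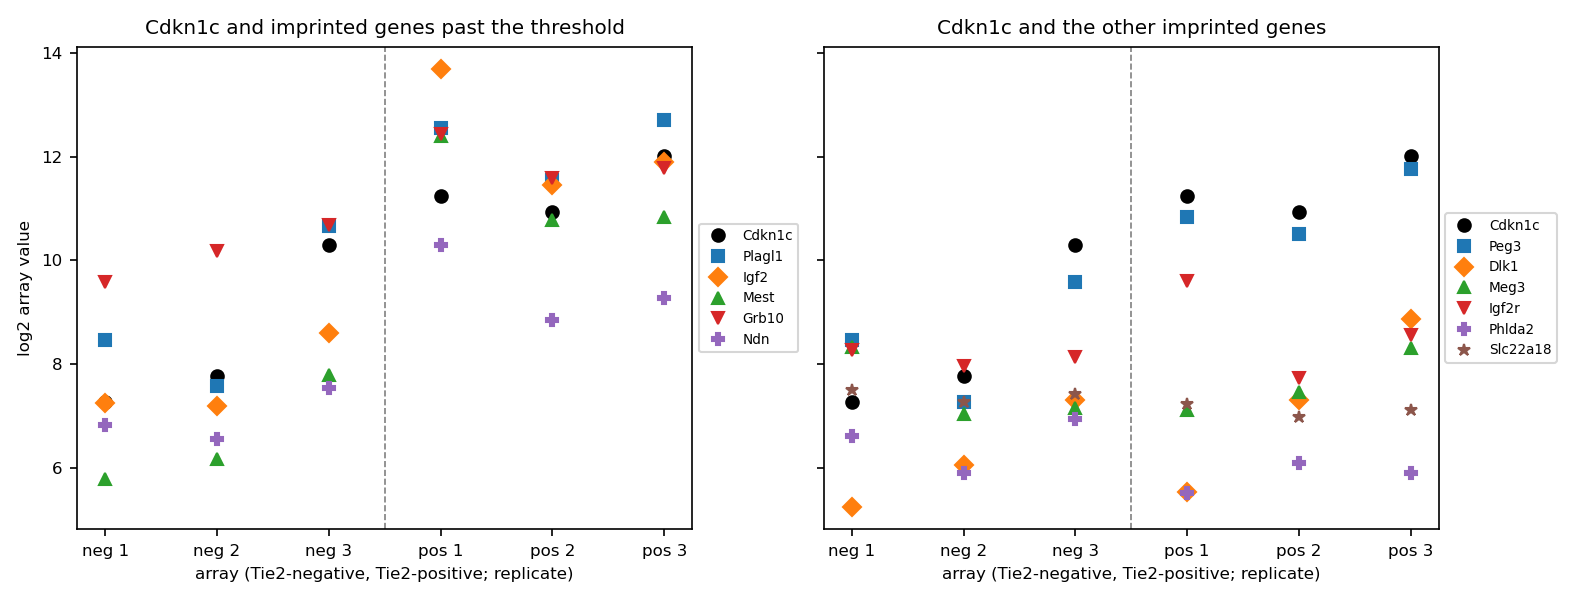
Log2 array values (y axis) of Cdkn1c (black circles) on each array (x axis, neg for Tie2-negative, pos for Tie2-positive, with the replicate number), left with the 5 imprinted genes past the threshold and right with the 6 others. In the left panel Tie2-negative replicate 3 is the highest Tie2-negative array for each gene (Cdkn1c at 10.31), and in the right panel Slc22a18 and Phlda2 have a lower Tie2-positive mean.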

How the data were processed

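The deposited table holds log2 values per probe set that the authors had processed. The summarisation and normalization behind them are not given in the sources used here. That the scale is log2 was inferred from the size of the values. Per the labels' protocols, RNA was amplified in 2 rounds and arrays were scanned with GCOS 1.1.1. Of 45101 probe sets 64 were controls. The arrays' upper quartiles differed by up to 0.27 and their medians by up to 0.08. Because a difference passed 0.1, values were quantile normalized, which also removes a shift that goes with the populations. Probe sets annotated to 1 gene (34945) were reduced to the highest mean per gene, and a model of population alone was fitted to 18193 genes (R 4.3.3, limma 3.58.1, lmFit and eBayes with a mean-variance trend). Two-sided p-values were adjusted by Benjamini-Hochberg. The procedure was tested on simulated data in which each gene varied independently. Shifts shared by many genes, as with a change of cell mixture, were not simulated. Shifts within a family used exact permutation tests over arrays. Precision is limited by the 3 arrays per population.

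The genes, lists and tests were chosen with earlier results of these data known. Named genes were the 10 members, for each pathway list up to 3 called genes without overlap of the populations (largest change) or else the 2 with the highest mean, and the 2 genes most like each member that spans at least 2 log2 units. Same-numbered arrays of the populations did not deviate together in every pair.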

Additional observations from a re-analysis of the deposited data

How the results depend on the processing

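The count of 0 members called held with the values as deposited, with arrays centred on their medians, with a filter at the 40th percentile, without x_at and s_at probe sets, with the adjustment over all probe sets, with no trend in eBayes and with robust estimation. It was 1 higher over the mean of all probe sets. With array weights it was 3 higher and 2 lower (4639 genes called in all). With Tie2-positive replicates 2 and 3 left out it was 2 higher (Ccnd1 and Cdkn1a) and 2 lower (Ccnd3 and Cdk6), with 3637 genes called, the lone Tie2-positive array being assumed to vary like the other population. With 1 array left out the members called higher numbered 0 to 1 and all genes called 0 to 2148. The cause of these differences was not tested.

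A fit that added a replicate block called 0 members and 0 genes (smallest adjusted p 0.0521). Deviations of same-numbered arrays from their population means, over 18193 genes, correlated at 0.14, 0.005 and 0.186 for numbers 1, 2 and 3, so the numbers were not taken as pairs. In 2 of the 3 numbers, 1 and 3, the Tie2-positive array correlated best with its own number.

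Values near 0 changed sign. Cdk6 (-0.05) was 0.06 as deposited, 0.10 with centred arrays, 0.045 over all its probe sets, 0.77 with array weights and from -0.707 to 1.155 with 1 array left out. Cdkn2d was 0.37 with array weights and from -0.779 to 0.431 with 1 array left out. Cdkn1b was 0.30 with Tie2-positive replicates 2 and 3 left out and from -0.667 to 0.04 with 1 array left out. Among genes alike in pattern, Tent5a was 0.057, 0.097 and 0.39 as deposited, with centred arrays and with array weights, and Phgdh and Cmas were 0.54 and 0.45 with array weights. With 1 array left out Tent5a was from -0.882 to 1.076, Phgdh from -0.677 to 0.857, Cmas from -0.78 to 0.458, Gstt1 from -1.276 to 0.007 and Ptprc from -2.38 to 0.8. The shift of Cdk4 minus Cdk6 was 1.40 with Tie2-positive replicates 2 and 3 left out and from -1.35 to 0.084 with 1 left out, and that of Ccnd1 minus Ccnd2 was from -0.08 to 1.144.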
